A study of Danio rerio with 45 samples.

Results

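Germ plasm and germline genes were followed from the 1-2 cell stage to 2 days postfertilization (dpf) in wild-type (WT) zebrafish embryos and in embryos of 2 DNA methyltransferase mutants. The 10 genes listed were nanos3, dnd1, dazl, ddx4, tdrd7a, piwil1, piwil2, ca15b, hormad1 and zar1. A probe was taken as a member when it was not a control spot and its transcript accession led to one of these symbols. In this way 22 of the 43603 probes on the array were found, and they covered 9 of the 10 genes. ca15b had 6 probes, piwil1 had 4, tdrd7a had 3, ddx4, dazl and zar1 had 2 each, and nanos3, dnd1 and hormad1 had 1 each. piwil2 was not matched to a probe here. Where a gene had several probes, its brightest probe, the one with the highest mean over the 45 arrays, is described first and the others follow by number in falling order of that mean.

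In zebrafish, germ cells are set apart by germ plasm, a cytoplasm rich in RNA and protein that the mother lays down in the egg and that a few cells of the early embryo inherit. These primordial germ cells keep the maternal germline RNAs while the rest of the embryo degrades them during the maternal-to-zygotic transition, and they then migrate to the gonad under the guidance of a chemokine. Dnmt3 enzymes are de novo DNA methyltransferases, and in vertebrates promoter methylation is one of the known ways in which germline genes are kept silent in other tissues.

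Each of the 45 one-colour arrays held RNA from 1 pool of 20 whole embryos, with 3 arrays for each of 3 genotypes at each of 5 stages, which were 1-2 cell, the shield stage of gastrulation, 5-somite, 1 dpf and then 2 dpf. The genotypes were labelled WT, dnmt3aa-/- and dnmt3bb.2-/-. The study describes the dnmt3aa-/- embryos as maternal-zygotic (MZdnmt3aa-/-), so that mother and embryo both lacked Dnmt3aa function, and that name is kept below. The alleles, the background strain and the maternal genotype of the dnmt3bb.2-/- embryos are not given in the sources used here. RNA of the 1-2 cell stage comes from the mother, so a genotype difference at that stage is a difference between eggs. In pools of whole embryos, fewer germ cells and less RNA per germ cell cannot be told apart.

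The value of a probe is a log2 signal score, the base 2 logarithm of its background-corrected signal after every array was scaled to the same trimmed mean, so that a difference of 1 is a 2-fold change. Scores were read for differences of a probe between groups and not for differences between probes. Between 62.4% and 84.6% of probes were well above background on an array (median 75.2%), and none was saturated. A probe was called changed at an adjusted p of at most 0.01 in a limma fit over all tested probes, where a tested probe was well above background on at least 1 array of the fit. In WT, shield-stage markers (tbxta at least 1250-fold, chrd at least 396-fold), the 5-somite marker myod1 (182-fold), the 1 dpf globin gene hbbe3 (2470-fold) and the 2 dpf photoreceptor gene rho (at least 882-fold) rose at the steps into their stages. The transcript of dnmt3bb.2 was lower on all dnmt3bb.2-/- arrays at all 5 stages (log2 differences of -0.80, -2.06, -2.68, -2.10 and -0.88 in order of stage). The dnmt3aa transcript was higher on all arrays labelled MZdnmt3aa-/- at all 5 stages (0.59, 0.95, 0.54, 0.62 and 0.79), which goes against a loss of transcript. The place of the mutation relative to that probe is not given in the sources used here, so the probe does not check the label. The arrays labelled MZdnmt3aa-/- were on slides of their own and were scanned on a day of their own, so genotype and scan day cannot be told apart in that comparison. WT and dnmt3bb.2-/- arrays shared slides at every stage but 5-somite, where each genotype had 1 slide to itself and genotype and slide cannot be told apart. The shared slide held 1 dnmt3bb.2-/- and 3 WT arrays at 1-2 cell and 1 dpf, and 3 dnmt3bb.2-/- and 1 WT at shield and 2 dpf. A fit with the slide as a term takes its difference from that slide, and so from 1 array on one side. WT arrays of different stages were never on the same slide, so stage and slide cannot be told apart in any WT step. The WT 5-somite arrays were scanned on another day than all other WT arrays. Stage and scan day therefore cannot be told apart in the WT steps into and out of 5-somite.

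Maternal germline transcripts fell in WT at different times, and by 2 dpf all but hormad1 stood far below their level in the egg. From 1-2 cell to shield, transcripts of dazl and ca15b fell 41.3-fold and 37.3-fold, those of dnd1, tdrd7a, nanos3 and zar1 fell between 3.13-fold and 9.06-fold, and those of ddx4 and piwil1 fell 1.34-fold each, which was not called after quantile normalization or scaling by the 75th percentile. Between shield and 5-somite the order was another one, with ddx4 falling 25.8-fold and piwil1 11.4-fold. hormad1 rose 5.53-fold at the first step, and ca15b rose again between 5-somite and 1 dpf. Of the 22 probes, 19 were called lower and 1 higher at the first step, against 41.5% and 34.3% of the 40139 probes tested. At the second step 21 were lower and 0 were higher, against 29.9% and 41.4%, with 22 of the 22 under an unadjusted p of 0.05. At the third step 11 were lower and 7 higher (32.4% and 34.1% of all), and at the last step 16 were lower and 0 higher (27.7% and 30.7% of all, with 19 under an unadjusted p of 0.05). The 7 higher at the third step were the 6 probes of ca15b, which are 1 gene, and hormad1. The median log2 change of the member probes was -2.78, -2.99, -0.42 and -1.03 over the 4 steps, against -0.07, 0.19, -0.0042 and 0.09 over all tested probes. Array scaling fixes the mean of each array, so these are changes relative to the other transcripts and not amounts per embryo. A probe above background at any WT stage was tested at every step. At 2 dpf dnd1, ddx4 probe 2 and ca15b probes 2 to 6 were no longer above background and could only fall. dazl probe 2, tdrd7a probes 2 and 3 and piwil1 probe 4 were above background at neither 1 nor 2 dpf. At the second step dazl probe 2, tdrd7a probe 3, piwil1 probe 4 and ca15b probe 6 could only fall. At the third, tdrd7a probe 2 could only fall and ca15b probe 6 only rise. The counts and medians include these. The slide changed with the stage at all 4 steps. At the steps into and out of 5-somite the scan day changed too, so the share of scan day in those changes was not tested. This holds for the falls of ddx4 and piwil1 to 5-somite and for the rise of ca15b to 1 dpf.

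**Figure D1:**
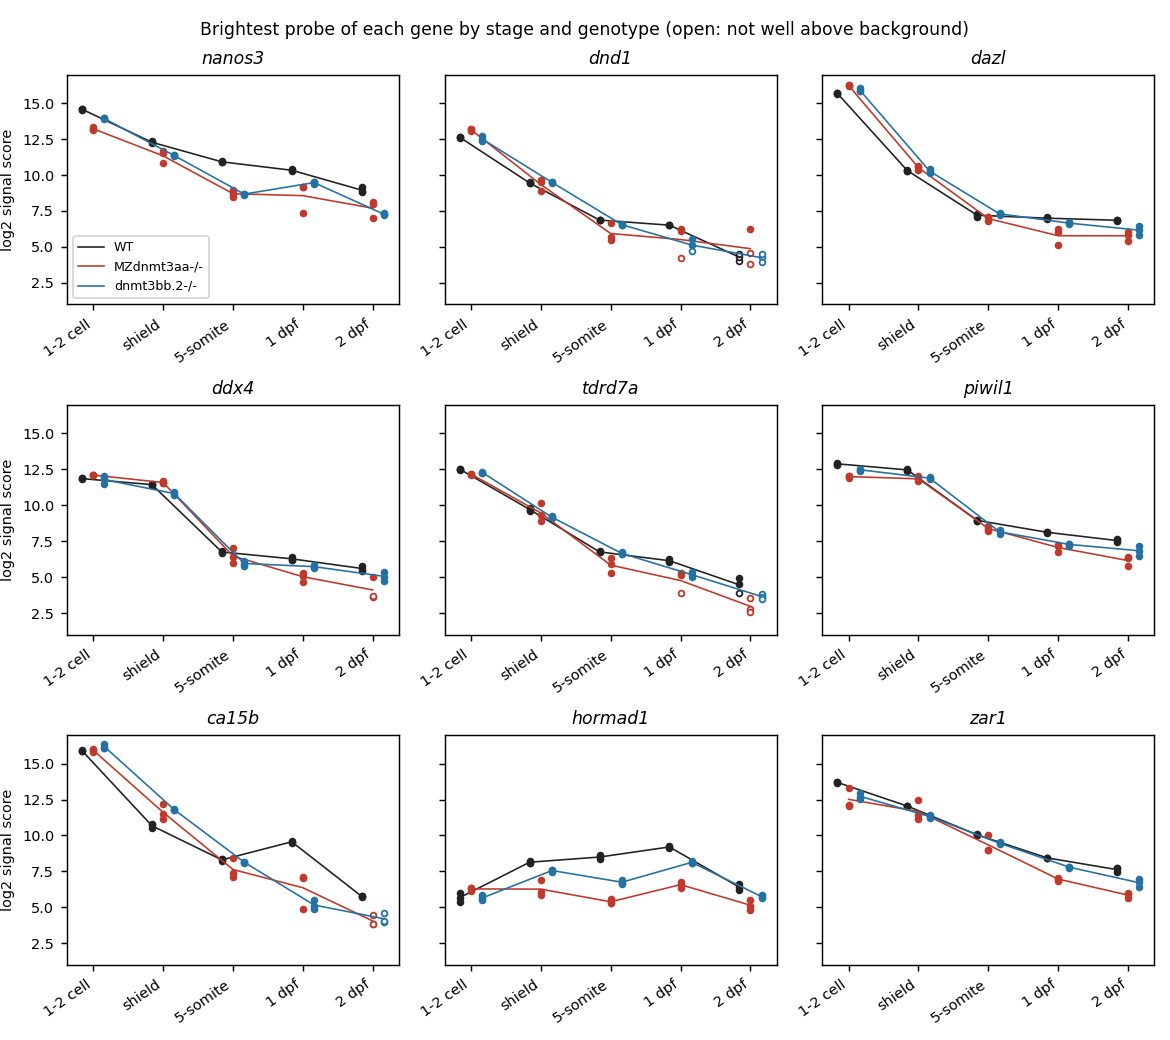
Log2 signal scores (vertical axis) of the brightest probe of each of the 9 genes at 5 stages (horizontal axis), with 1 point per array, lines through the means of the 3 arrays of a group, and open points for arrays on which the probe was not well above background. In WT, dazl and ca15b drop by more than 5 log2 units between 1-2 cell and shield, ddx4 and piwil1 drop one step later, and hormad1 rises to 1 dpf.

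Among the RNA-binding proteins of germ cells, nanos3 encodes a translational repressor that primordial germ cells need to survive, and dnd1 a protein that germ cells need for migration and survival. WT scores of nanos3 were 14.57, 14.54 and 14.63 at 1-2 cell, 12.37, 12.27 and 12.21 at shield, 10.89, 10.95 and 10.93 at 5-somite, 10.26, 10.42 and 10.33 at 1 dpf, and 8.79, 8.92 and 9.15 at 2 dpf. The stages did not overlap, and nanos3 fell at every step. On average it fell 4.91-fold at the first step and 2.61-fold at the last (limma over the 4 steps, adjusted p between 4.03e-05 and 3.41e-11). WT scores of dnd1 were 12.67, 12.56 and 12.66 at 1-2 cell, 9.44, 9.42 and 9.49 at shield, 6.89, 6.85 and 6.88 at 5-somite and 6.50, 6.54 and 6.50 at 1 dpf. At 2 dpf dnd1 was not well above background on any WT array, and its last fall was at least 4.67-fold. The fall of dnd1 between 5-somite and 1 dpf was small (-0.36, adjusted p of 0.00438) and was called in 0 of the 6 fits that left out 1 array.

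dazl encodes an RNA-binding protein that promotes translation in germ cells. WT scores were 15.68, 15.66 and 15.71 at 1-2 cell, 10.28, 10.31 and 10.35 at shield, 7.09, 7.27 and 7.25 at 5-somite, 6.92, 6.99 and 7.09 at 1 dpf, and 6.82, 6.85 and 6.89 at 2 dpf. The falls at the first and second steps were 41.3-fold and 8.63-fold (log2 -5.37 and -3.11, SE 0.06 each), after which the score stayed near 7. The change between 5-somite and 1 dpf was -0.21 (adjusted p of 0.00758, called in 2 of the 6 fits without 1 array) and that between 1 and 2 dpf was -0.14 (0.0488, not called). The second dazl probe fell by 3.48 on the log2 scale at the first step and was not well above background on any WT array at 5-somite.

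ddx4 encodes the Vasa RNA helicase and tdrd7a a Tudor domain protein, both parts of germ granules. WT scores of ddx4 were 11.89, 11.80 and 11.88 at 1-2 cell and 11.40, 11.47 and 11.44 at shield, and they dropped to 6.84, 6.64 and 6.77 at 5-somite. The first change of ddx4 was -0.42, and -0.10 and -0.04 after quantile normalization and scaling by the 75th percentile, where it was not called, nor was it in a fit over all 45 arrays. Most of the loss of ddx4 lay between shield and 5-somite (log2 -4.69, SE 0.09), with 6.22, 6.43 and 6.17 at 1 dpf and 5.59, 5.80 and 5.42 at 2 dpf. tdrd7a lost about the same at both early steps, from 12.51, 12.49 and 12.54 through 9.61, 9.70 and 9.82 to 6.79, 6.77 and 6.72 (6.99-fold and 7.73-fold). The second and the third probe of tdrd7a fell by 2.76 and 3.08 on the log2 scale at the first step. At the second step the second probe fell by 2.98 on the log2 scale, to a level well above background on 1 of the 3 arrays, and the third, which was above background on none, fell at least 3.27-fold.

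piwil1 encodes Ziwi, a Piwi protein that binds piRNAs and guards the germline against transposons. WT scores were 12.81, 12.96 and 12.89 at 1-2 cell, 12.56, 12.47 and 12.36 at shield, 8.99, 8.92 and 8.94 at 5-somite, 8.15, 8.05 and 8.15 at 1 dpf, and 7.56, 7.65 and 7.42 at 2 dpf. Like ddx4, piwil1 was close to its egg level at shield and had dropped by 5-somite, with a log2 change of -3.52 (SE 0.07). The 3 brighter probes of piwil1 fell by between 3.50 and 3.66 on the log2 scale at that step, and the fourth, not well above background on any 5-somite array, fell at least 5.33-fold. Their first step was small (-0.27 to -0.53). It was not called on the brightest or the third probe after quantile normalization or scaling by the 75th percentile (-0.21 and -0.04 for the brightest), and for the second probe (-0.27) the sign turned with the scaling, to 0.03 after quantile normalization and 0.11 after scaling by the 75th percentile.

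zar1 encodes an oocyte RNA-binding protein needed at the start of development, and it fell at all 4 steps. WT scores were 13.62, 13.72 and 13.74, then 12.03, 12.05 and 12.06, then 10.02, 10.08 and 10.04, then 8.46, 8.42 and 8.44, and last 7.71, 7.72 and 7.44. It fell 3.13-fold at the first step and 1.76-fold at the last, and the second zar1 probe fell by 1.81, 1.74, 1.19 and 0.78 on the log2 scale.

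ca15b encodes a carbonic anhydrase whose transcript marks primordial germ cells in zebrafish. WT scores of the brightest probe were 15.89, 15.86 and 15.94 at 1-2 cell, 10.52, 10.70 and 10.81 at shield, 8.33, 8.19 and 8.38 at 5-somite, 9.50, 9.61 and 9.57 at 1 dpf, and 5.77, 5.81 and 5.73 at 2 dpf. The lowest 1 dpf array was above the highest 5-somite array, and all 6 ca15b probes rose at that step, 5 of them by between 1.26 and 1.77 on the log2 scale. The sixth was not well above background on any 5-somite array and rose at least 4.73-fold, and after normexp background correction its change was 0.03 and was not called. They fell again by 2 dpf, by 3.79 for the brightest probe. hormad1, which encodes a HORMA domain protein of meiotic chromosome axes, was the member with an opposite course. Its WT scores were 5.34, 5.66 and 6.01 at 1-2 cell, 8.11, 8.11 and 8.20 at shield, 8.36, 8.47 and 8.67 at 5-somite, 9.22, 9.28 and 9.11 at 1 dpf and 6.59, 6.23 and 6.40 at 2 dpf. hormad1 rose to shield (2.47, SE 0.15), changed by 0.36 to 5-somite (adjusted p of 0.0421, not called), rose by 0.70 to 1 dpf and fell by 2.80 to 2 dpf.

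The germline transcripts were lower in both mutants at 1 dpf. At that stage the brightest probe of each of the 9 genes was lower on all 3 arrays of either mutant than on all 3 WT arrays. Limma called 9 of the 9 lower in dnmt3bb.2-/- and 4 of the 9 (ddx4, piwil1, hormad1 and zar1) in MZdnmt3aa-/-. The same 3 WT arrays of a stage served both comparisons, so the mutants' values are given side by side and their likeness is not a result of its own. Over all probes tested, 28.3% were lower without overlap in MZdnmt3aa-/- at 1 dpf and 36.2% in dnmt3bb.2-/-. For MZdnmt3aa-/- at 1 dpf, 10 of the 18 member probes tested were called lower and 0 higher, where 9.82% of all probes were called lower and 20.8% were called in either direction, and 17 had an unadjusted p under 0.05. That count was 16 without array 3 of MZdnmt3aa-/- and 3 without array 1 of WT. Over all probes, 16170 of 37637 and 2410 of 37831 were called in those fits, against 7873 of 37911 in the full fit. For dnmt3bb.2-/- at 1 dpf, 16 of the 19 tested were called lower and 0 higher, against 24.1% and 22.8% of all probes (17 at an unadjusted p under 0.05). The median log2 difference of the members was -1.43 in MZdnmt3aa-/- and -0.93 in dnmt3bb.2-/-, while that of all probes was -0.01 and -0.02. A probe could enter these tests through WT alone, which was the case for 3 of the member probes in MZdnmt3aa-/- and 5 in dnmt3bb.2-/- at 1 dpf. Such probes could only come out lower, and the counts and medians above include them. All 6 probes of ca15b, which are 1 gene, are among the 16 called in dnmt3bb.2-/-.

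At the other stages the counts were as follows. At 1-2 cell, MZdnmt3aa-/- had 7 of 22 probes called higher and 5 lower (28.5% and 28.8% of all), which are shares near the background, and dnmt3bb.2-/- had 0 higher and 6 lower (15.1% and 16.3% of all, with 13 under an unadjusted p of 0.05). At shield the counts were 1 higher and 1 lower in MZdnmt3aa-/- (6.59% and 5.68% of all) and 6 higher, all of ca15b, and 12 lower in dnmt3bb.2-/- (27.4% and 24.1% of all). At 5-somite, 3 of the 18 tested were lower and 0 higher in MZdnmt3aa-/- (11.5% and 9.82% of all, 8 under an unadjusted p of 0.05), and 10 of 18 were lower and 0 higher in dnmt3bb.2-/- (18.9% and 16.9% of all, 14 under an unadjusted p of 0.05). At 2 dpf, 7 of the 12 tested were lower and 0 higher in MZdnmt3aa-/- (6.90% and 5.70% of all, 10 under an unadjusted p of 0.05), and 3 of the 11 tested were lower and 0 higher in dnmt3bb.2-/- (8.61% and 6.31% of all, 9 under an unadjusted p of 0.05). As at 1 dpf, some tested probes were above background in WT alone and could only be lower. They were 2 at 2 dpf in either mutant, and 2 at 5-somite and 1 at shield in dnmt3bb.2-/-. With the slide as a term, the dnmt3bb.2-/- counts were 1 at 1-2 cell, 13 at shield, 13 at 1 dpf and 1 at 2 dpf. Over all probes, those fits called 5634 at 1-2 cell, 10466 at shield and 1292 at 2 dpf. Without the slide they called 10043, 17164 and 5753. Since the slide fits take each difference from a slide with 1 array of one genotype, they cannot settle whether a call holds.

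**Figure D2:**
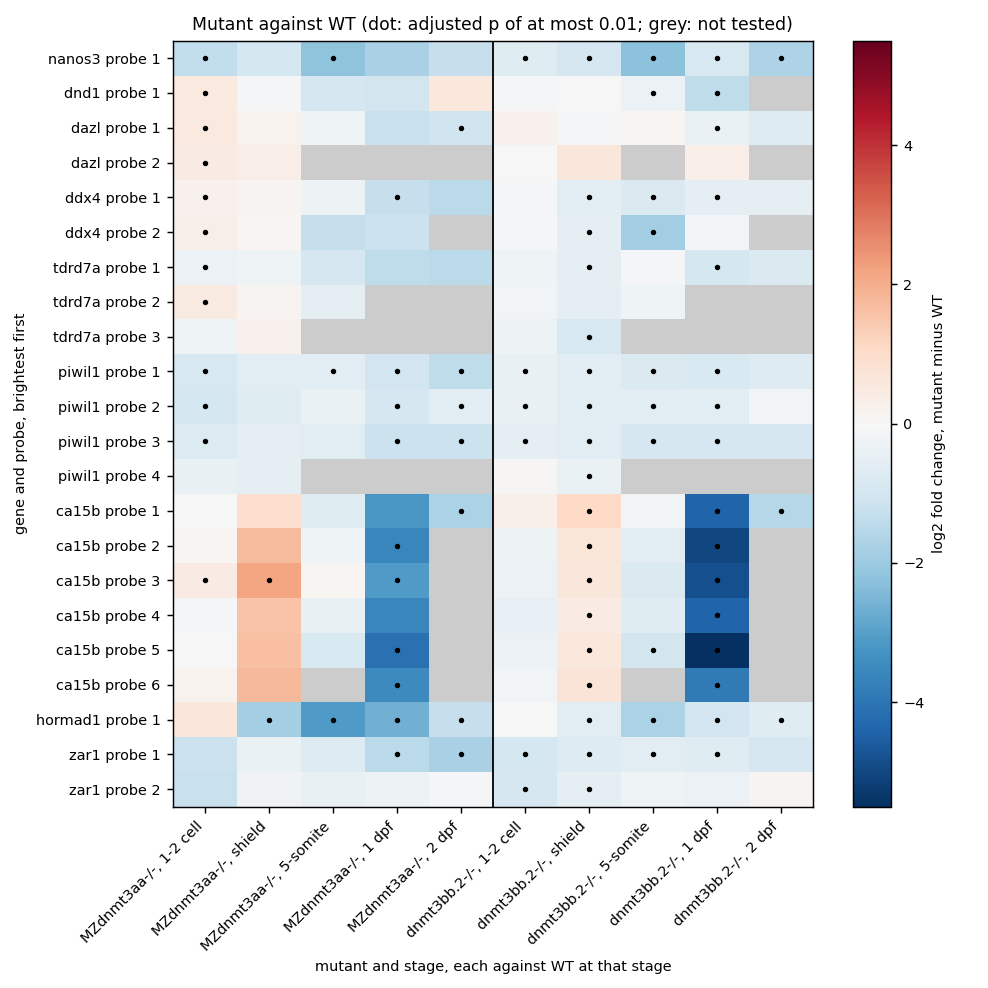
Log2 difference from WT (colour) of each member probe (rows, brightest first within a gene) in MZdnmt3aa-/- and in dnmt3bb.2-/- at the 5 stages (columns). Dots mark an adjusted p of at most 0.01 in the limma fit, and grey marks a probe that was not tested. At 1 dpf the brightest probes of all 9 genes lie below 0 in both mutants, and ca15b lies above 0 at shield.

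Some stage markers differed from WT in MZdnmt3aa-/- at 1 dpf, while 7 of 11 were not called and the median difference of the markers was -0.17. Of the 11 stage markers matched, 4 were called lower and 0 higher there (9.82% of all probes were lower), the embryonic globin genes hbbe1.1 and hbbe3 among them (log2 differences of -3.22 and -2.31). The summed signal of the 11 markers was between 17.36 and 18.51 on the log2 scale in MZdnmt3aa-/- at 1 dpf, against 19.37 to 19.44 in WT and 19.43 to 19.53 in dnmt3bb.2-/-, and all 11 were above background in each group. The brightest markers dominate such a sum, and hbbe3 alone averaged 18.87 in WT and 16.56 in MZdnmt3aa-/- at 1 dpf. In dnmt3bb.2-/- at 1 dpf, 0 of the 11 were lower and 4 were higher (24.1% and 22.8% of all probes). In MZdnmt3aa-/- eggs the summed signal was between 10.45 and 12.82, against 9.52 to 9.84 in WT eggs. The part of embryonic age in the germline differences was not tested. Array 3 of MZdnmt3aa-/- stood apart from the other 2 for several members: at 1 dpf it was the lowest array for nanos3, dnd1, dazl, tdrd7a and ca15b, and at shield and 5-somite it was the highest for zar1, ca15b and tdrd7a. It is another pool at each stage. Each array was left out in turn, and fits without array 3 are picked out below after its scores were seen. A call gained only in such a fit is therefore a description and does not replace the full fit. The median SD of a probe over 3 arrays was 0.25 in MZdnmt3aa-/- at shield and 0.17 at 1 dpf and 5-somite, and in WT at these stages it was between 0.05 and 0.08.

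All nanos3 scores of both mutants lay below all WT scores at every stage, from the egg on. At 1-2 cell the scores were 13.22, 13.32 and 13.13 in MZdnmt3aa-/- and 13.90, 13.94 and 13.94 in dnmt3bb.2-/-, all below the WT arrays. The differences were -1.36 (SE 0.06, adjusted p of 4.03e-05) and -0.66 (SE 0.06, 5.82e-04), or 2.56-fold and 1.58-fold less maternal transcript. The gap was wider at 5-somite, where WT arrays stood near 10.9. There the scores were 8.68, 8.45 and 8.99 in MZdnmt3aa-/- and 8.70, 8.69 and 8.64 in dnmt3bb.2-/-, so that the 2 mutants overlapped with each other and not with WT. The 5-somite differences were -2.22 (SE 0.15, adjusted p of 4.85e-04) and -2.25 (SE 0.05, 4.76e-06), or 4.66-fold and 4.74-fold. With the slide as a random block the MZdnmt3aa-/- difference of nanos3 was -2.16 and was not called (adjusted p of 0.0117).

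At the remaining stages the dnmt3bb.2-/- differences of nanos3 were -0.93 at shield, -0.86 at 1 dpf and -1.68 at 2 dpf. All 5 were called, also in each fit without 1 array. Within the shared slides, each with 1 array on one side, the differences were -0.68 at 1-2 cell, -0.85 at shield, -0.85 at 1 dpf and -1.88 at 2 dpf. In MZdnmt3aa-/- nanos3 differed by -0.95 at shield, -1.77 at 1 dpf and -1.26 at 2 dpf, with adjusted p of 0.0322, 0.0403 and 0.0254. These 3 were lower on all arrays but were not called. At 1 dpf array 3 of MZdnmt3aa-/- read 7.39 beside 9.14 and 9.17, and without it the difference was -1.19 and was called (adjusted p of 3.40e-04). At 2 dpf the difference without array 3 was -0.92 (0.0074).

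dnd1 and dazl had more maternal transcript in MZdnmt3aa-/- eggs than in WT eggs. The MZdnmt3aa-/- scores were 13.23, 13.20 and 13.05 for dnd1 (0.53 above WT, adjusted p of 0.00115) and 16.19, 16.28 and 16.24 for dazl (0.55 above WT, 1.90e-04). In dnmt3bb.2-/- eggs the differences were -0.12 for dnd1 and 0.23 for dazl, neither of them called. In MZdnmt3aa-/- neither was called at shield, 5-somite or 1 dpf. The dazl probes disagreed in dnmt3bb.2-/- at shield, with -0.04 on the brightest and 0.64 on the second, neither of them called. dnd1 scores at 1 dpf were 5.15, 4.71 and 5.53 in dnmt3bb.2-/-, below 6.50, 6.54 and 6.50 in WT (-1.38, adjusted p of 0.00229), and the call was lost without any 1 of the WT arrays (adjusted p of at most 0.0107) and with the slide as a term (-1.36, 0.025). MZdnmt3aa-/- arrays read 6.24, 6.10 and 4.21 for dnd1 at 1 dpf, where the difference was not called (adjusted p of 0.211), and only the array at 4.21 was not well above background. dazl was lower in both mutants at 1 dpf, by 0.35 in dnmt3bb.2-/- (adjusted p of 0.00402, called in 2 of the 6 fits without 1 array, and 0.0382 with the slide as a term) and by 1.22 in MZdnmt3aa-/- (0.0258, not called). At 2 dpf dazl read 6.05, 5.86 and 5.42 in MZdnmt3aa-/- (-1.08, adjusted p of 0.00718), a difference that was called in 1 of the 6 fits without 1 array.

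The probes of the germ granule genes differed from WT by at most 0.51 on the log2 scale in the egg. At 1 dpf the second ddx4 probe differed by -0.16 in dnmt3bb.2-/- and by -1.19 in MZdnmt3aa-/-, neither of them called, and the second and the third probe of tdrd7a were not well above background on any array. ddx4 read 12.10, 12.12 and 12.09 in MZdnmt3aa-/- eggs (0.24 above WT, adjusted p of 0.00343, called in 1 of the 6 fits without 1 array) and 12.07, 11.49 and 11.80 in dnmt3bb.2-/- eggs, which overlapped WT. In dnmt3bb.2-/- ddx4 was then lower at shield (10.89, 10.72 and 10.83), at 5-somite (5.94, 6.15 and 5.76) and at 1 dpf (5.67, 5.66 and 5.85), by 0.62, 0.80 and 0.55 on the log2 scale. The shield call held in all 6 fits without 1 array, that of 5-somite in 4 and that of 1 dpf in 3, and the 1 dpf difference was -0.60 with an adjusted p of 0.0212 when the slide was a term. In MZdnmt3aa-/- ddx4 was lower at 1 dpf (5.31, 5.07 and 4.69, a difference of -1.25, adjusted p of 0.00409, called in 2 of the 6 fits without 1 array). tdrd7a was lower in MZdnmt3aa-/- eggs on its brightest probe (12.20, 12.19 and 12.13, a difference of -0.34, 8.17e-04), while its second probe was 0.51 higher and called and the third differed by -0.22 without a call, so the probes of tdrd7a disagreed there. In dnmt3bb.2-/- tdrd7a was lower at shield (-0.54, adjusted p of 0.00102) and at 1 dpf (-0.97, 7.22e-04), each in all 6 fits without 1 array, and in MZdnmt3aa-/- the 1 dpf difference of -1.38 was not called (0.0346).

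In both mutants all scores of the brightest piwil1 probe lay below all WT scores of the same stage, at all 5 stages. Such a lack of overlap was common, at 28.3% of all probes tested in MZdnmt3aa-/- and 36.2% in dnmt3bb.2-/- for lower scores at 1 dpf. The 3 brighter probes of piwil1 moved together at 1-2 cell and at 1 dpf. The egg scores were 11.92, 12.03 and 12.05 in MZdnmt3aa-/- and 12.56, 12.42 and 12.44 in dnmt3bb.2-/-, against 12.81 to 12.96 in WT. The difference was -0.89 in MZdnmt3aa-/- (SE 0.06, adjusted p of 1.49e-04, in all 6 fits without 1 array) and -0.41 in dnmt3bb.2-/- (0.00761, in 1 of 6, and 0.0498 with the slide as a term). At 1 dpf the scores were 6.78, 7.14 and 7.26 in MZdnmt3aa-/- and 7.32, 7.20 and 7.30 in dnmt3bb.2-/-, against 8.05 to 8.15 in WT. That is a difference of -1.06 (adjusted p of 0.00314, in 2 of 6) in the first mutant and -0.85 (7.54e-05, in all 6) in the second. In dnmt3bb.2-/- the 3 brighter probes were called lower at shield (-0.57 to -0.58), 5-somite (-0.63 to -0.93) and 1 dpf (-0.57 to -0.92). At 2 dpf these probes differed there by -0.71, -0.15 and -0.91 in order, none of them called. In MZdnmt3aa-/- the brightest probe read 11.68 to 12.03 at shield, against 12.36 to 12.56 in WT, and it was not called lower there. It read 8.21 to 8.56 at 5-somite, against 8.92 to 8.99 in WT. At 2 dpf it read 5.76 to 6.39, against 7.42 to 7.65 in WT.

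hormad1 was called lower in MZdnmt3aa-/- at every stage from shield on. MZdnmt3aa-/- scores were 6.13, 6.34 and 6.36 at 1-2 cell, 6.87, 5.85 and 6.08 at shield, 5.32, 5.28 and 5.55 at 5-somite, 6.79, 6.62 and 6.32 at 1 dpf, and 5.48, 5.12 and 4.83 at 2 dpf. At 1-2 cell these arrays lay above all WT arrays, by 0.61 on average, which was not called. From shield on, each MZdnmt3aa-/- array lay below each WT array of its stage. The differences were -1.88 (SE 0.28, adjusted p of 0.00653), -3.11 (SE 0.12, 1.17e-04), -2.63 (SE 0.14, 2.52e-04) and -1.26 (SE 0.19, 0.00588), or 3.67-fold, 8.66-fold, 6.17-fold and 2.40-fold. The calls at 5-somite and 1 dpf held in all 6 fits without 1 array, those at shield and 2 dpf in 1 and 2 of the 6.

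dnmt3bb.2-/- arrays lay between WT and MZdnmt3aa-/- for hormad1 at shield, 5-somite and 1 dpf. Their scores were 7.49, 7.58 and 7.61 at shield, 6.70, 6.92 and 6.62 at 5-somite and 8.07, 8.12 and 8.20 at 1 dpf. The differences from WT were -0.58, -1.75 and -1.07 (adjusted p between 5.97e-05 and 3.08e-04, in all 6 fits without 1 array at each stage). At 1-2 cell the dnmt3bb.2-/- arrays overlapped WT (-0.03, adjusted p of 0.921), and at 2 dpf the difference was -0.66 (0.00898, called in 0 of the 6 fits without 1 array and not with the slide as a term, 0.0614).

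The brightest zar1 probe was called lower in dnmt3bb.2-/- at every stage before 2 dpf and in MZdnmt3aa-/- at 1 and 2 dpf. The egg scores were 12.07, 12.14 and 13.34 in MZdnmt3aa-/- and 12.66, 12.98 and 12.56 in dnmt3bb.2-/-, all below 13.62 to 13.74 in WT. The MZdnmt3aa-/- difference was -1.17 (adjusted p of 0.0344, not called), and without array 3, the one at 13.34, it was -1.59 (8.14e-05). Array 3 stood closest to WT at shield and 5-somite too, where the differences of -0.38 and -0.70 were not called, and without it they were -0.76 (0.00937) and -1.04 (3.09e-04). In dnmt3bb.2-/- eggs the difference was -0.96 (adjusted p of 0.00239), lost without any 1 of the 3 WT arrays (at most 0.015) and with the slide as a term (-1.03, 0.0178). At 1 dpf zar1 read 6.87, 6.97 and 7.06 in MZdnmt3aa-/- and 7.76, 7.79 and 7.82 in dnmt3bb.2-/-, against 8.42 to 8.46 in WT. Those differences were -1.48 (SE 0.07, adjusted p of 2.11e-04) and -0.65 (SE 0.03, 3.72e-05), each in all 6 fits without 1 array. At 2 dpf MZdnmt3aa-/- was lower by 1.78 on the log2 scale (7.50e-04, in all 6), and dnmt3bb.2-/- by 0.92, just over the threshold. The second zar1 probe did not share the late difference: at 1 and 2 dpf it differed by -0.29 and -0.07 in MZdnmt3aa-/- and by -0.32 and 0.16 in dnmt3bb.2-/-, none of them called.

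On all 6 ca15b probes every array of both mutants lay above WT at shield and below WT at 1 dpf. The 6 probes were called at both stages in dnmt3bb.2-/-, and in MZdnmt3aa-/- 1 was called at shield and 4 were called at 1 dpf. At shield the brightest probe read 11.13, 11.50 and 12.20 in MZdnmt3aa-/- and 11.75, 11.76 and 11.87 in dnmt3bb.2-/-, all above 10.52, 10.70 and 10.81 in WT. At 1 dpf it read 7.07, 7.14 and 4.87 in MZdnmt3aa-/- and 5.54, 4.87 and 5.07 in dnmt3bb.2-/-, all far below 9.50, 9.61 and 9.57 in WT. Maternal and newly made transcript cannot be told apart at shield.

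The shield difference of ca15b in dnmt3bb.2-/- was 1.12 (SE 0.09, adjusted p of 1.83e-04), or 2.17-fold, and between 0.44 and 0.71 for the other 5 probes, all called, and 38.9% of all probes were higher there without overlap. The difference of the brightest probe was 0.99 with the slide as a term (0.00257). In MZdnmt3aa-/- the 6 probes were between 0.93 and 2.15 higher, with no overlap on any of them, where 28.1% of all probes were higher without overlap. Only the third probe was called (2.15, 0.00954), and only in 1 of the 6 fits without 1 array. Without array 3 of MZdnmt3aa-/- the third probe was 1.74 higher with an adjusted p of 0.0018. At 1-2 cell the brightest probe differed by 0.04 in MZdnmt3aa-/- (adjusted p of 0.606) and by 0.29 in dnmt3bb.2-/- (0.0489), and neither was called. The other 5 probes went the other way in dnmt3bb.2-/- eggs (-0.29, -0.31, -0.46, -0.34 and -0.15 in order, none called). In MZdnmt3aa-/- eggs the third probe averaged 14.76, against 14.33 in WT.

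At 1 dpf the difference of the brightest ca15b probe was -4.40 in dnmt3bb.2-/- (SE 0.18, adjusted p of 2.07e-05), or 21.1-fold, and -4.02 with the slide as a term (1.12e-04). The other 5 probes were not well above background on any dnmt3bb.2-/- array and were at least 7.71-fold to 22.7-fold lower. In MZdnmt3aa-/- the brightest probe differed by -3.20 (SE 0.64, adjusted p of 0.0133, not called), and by -2.45 (8.19e-05) without array 3, which read 4.87 beside 7.07 and 7.14. Of the other 5 probes, 4 were called lower in MZdnmt3aa-/-. The differences were -3.59 and -3.13 for probes 2 and 3, while probes 5 and 6 were not well above background on any array of that mutant and were at least 12.4-fold and 8.03-fold lower. The call of probe 6 held in all 6 fits without 1 array, and the other 3 calls held in 1 or 2 of the 6. At 2 dpf the brightest probe was above background in WT and not in either mutant, at least 3.09-fold lower in MZdnmt3aa-/- and at least 2.96-fold lower in dnmt3bb.2-/-. The first of these was called in 2 of the 6 fits without 1 array. The second was called in all 6 and had an adjusted p of 0.0237 with the slide as a term. Probe sequences were not used here, so signal that the ca15b probes may draw from its close relatives cannot be told apart from ca15b.

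**Figure D3:**
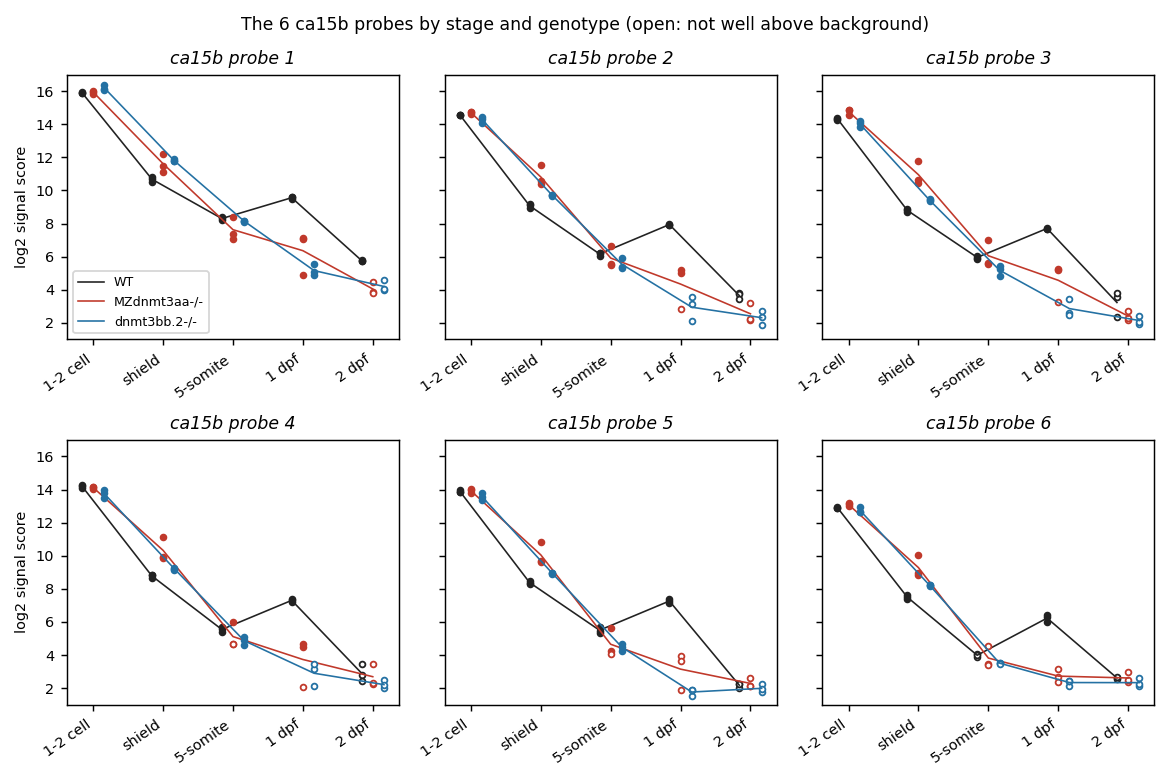
Log2 signal scores (vertical axis) of the 6 ca15b probes at the 5 stages, with 1 point per array and lines through the means of the 3 arrays of a group. On every probe both mutants lie above WT at shield and below WT at 1 dpf, where the WT score is higher than at 5-somite.

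The change between 1-2 cell and shield was compared between genotypes with an interaction term. The fall of ca15b was smaller than in WT on all 6 probes in both mutants. This was called on all 6 in dnmt3bb.2-/- and on 4 of the 6 in MZdnmt3aa-/-, its brightest probe not among those 4. Against the 37.3-fold loss in WT, the brightest ca15b probe fell 20.0-fold in MZdnmt3aa-/- and 21.0-fold in dnmt3bb.2-/-. In dnmt3bb.2-/- the step differed from that of WT by 0.83 (SE 0.13, adjusted p of 7.96e-04) and by 0.87 to 0.94 for the other 5 probes, all 6 called and in all 12 fits without 1 array. On those other 5 probes part of the difference lay in a lower egg score, as on probe 4 (-0.46 at 1-2 cell and 0.44 at shield). In MZdnmt3aa-/- the 6 differences were between 0.89 and 1.72, with 4 called, each in 3 of the 12 fits without 1 array and none with the slide as a random block (adjusted p between 0.0163 and 0.0247). The other member whose step differed was hormad1, which rose by 2.47 in WT and changed by -0.01 in MZdnmt3aa-/- (difference -2.48, SE 0.35, adjusted p of 5.99e-04, called in all 12 fits without 1 array). Part of that difference lay in a higher egg score of MZdnmt3aa-/- (0.61 above WT at 1-2 cell, not called). In dnmt3bb.2-/- hormad1 rose by 1.91, and the difference of -0.55 was not called (0.0648).

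Within MZdnmt3aa-/- the step was called lower for 13 of the 22 member probes and higher for 0 (34.8% and 28.0% of all probes, with 13 under an unadjusted p of 0.05), and within dnmt3bb.2-/- it was called lower for 21 and higher for 1 (37.5% and 30.8% of all). For the remaining 7 genes the step to shield was not called different from WT in either mutant. The brightest probe of dazl fell by 5.37 on the log2 scale in WT, by 5.72 in MZdnmt3aa-/- and by 5.65 in dnmt3bb.2-/-. On the brightest probes of the 7 genes, differences of the step ran from -0.64 to 0.80 in MZdnmt3aa-/- and from -0.55 to 0.23 in dnmt3bb.2-/-. Some other probes of these genes lay outside these ranges without a call, such as the second zar1 probe in MZdnmt3aa-/- and the second dazl probe in dnmt3bb.2-/-. In all, 4 member probes were called higher and 1 lower in MZdnmt3aa-/- (12.6% and 9.05% of all probes), and 6 were higher and 0 lower in dnmt3bb.2-/- (15.1% and 13.8% of all, with 16 under an unadjusted p of 0.05). The dnmt3bb.2-/- count was 0 in a fit over all 45 arrays (2 under an unadjusted p of 0.05), and the MZdnmt3aa-/- count was 0 after normexp background correction (10 under an unadjusted p of 0.05).

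**Figure D4:**
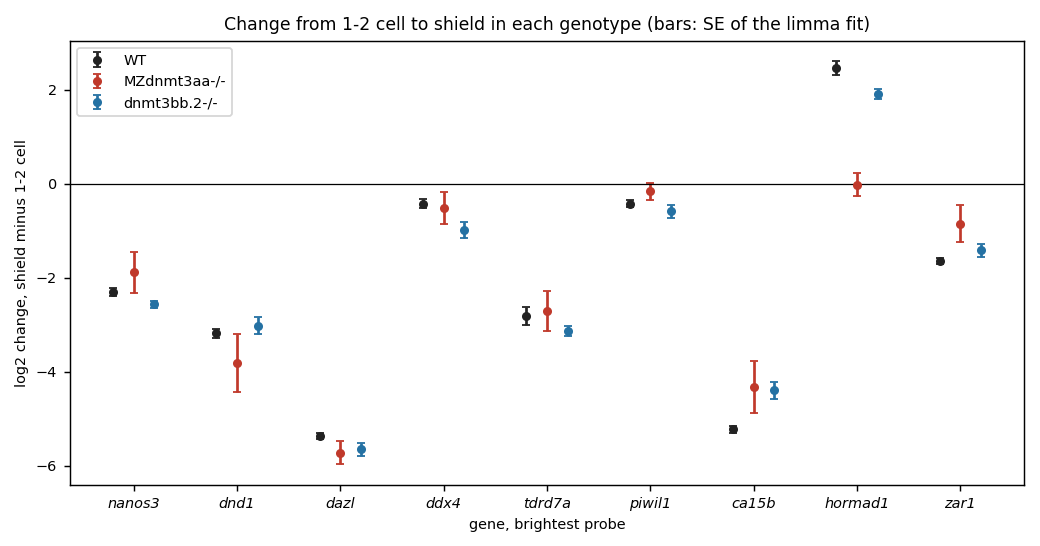
Log2 change from 1-2 cell to shield (vertical axis, with the standard error of the limma fit within a genotype) of the brightest probe of each gene in WT, MZdnmt3aa-/- and dnmt3bb.2-/-. dazl and ca15b fall most in all 3 genotypes, ca15b falls less in both mutants than in WT (not called for MZdnmt3aa-/- on this probe), and hormad1 rises in WT and dnmt3bb.2-/- only.

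Wider lists of germline genes, with 1 probe a gene, were read in the same fits. Of 24 genes of the oocyte and egg, 22 fell and 0 rose in WT between 1-2 cell and shield, against 41.5% and 34.3% of all probes. Among those that fell were mos, the kinase that arrests the egg in meiosis (-8.52), btg4, an adaptor of maternal mRNA decay (-7.49), and slbp2, an egg histone mRNA-binding protein (-7.17). Of 12 genes of the piRNA pathway, 8 fell and 1 rose, with tdrkh at -5.76, and tdrd1 fell at least 23.8-fold on a probe other than its brightest. Of 11 genes of meiosis, 6 fell and 2 rose. The 12 genes of germ plasm and germ cell migration were mixed, with 4 lower and 6 higher, and the risers were led by the chemokine cxcl12a (at least 175-fold) and its receptors ackr3b (at least 1880-fold) and cxcr4b (38.5-fold), which are also expressed outside germ cells. The median of the oocyte list at this step was -3.37, against -0.07 over all probes.

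At 1 dpf the lists had calls in both directions in each mutant. In MZdnmt3aa-/- at 1 dpf, 4 of 12 germ plasm and migration genes were higher and 0 lower, 0 of 11 piRNA genes were higher and 3 lower (tdrd9, pld6 and tdrd3, by 1.00, 0.94 and 0.33 on the log2 scale for those 3 in turn), 2 of 10 meiosis genes were higher and 0 lower, and 3 of 21 oocyte genes were higher and 2 lower. On probes other than their brightest, cxcl12a and rbpms2b of the germ plasm and migration list were called lower there (-1.13 and -0.69). The largest called rise in that list was that of cxcr4b (0.73). Over all probes, 9.82% were called lower in MZdnmt3aa-/- at 1 dpf and 20.8% in either direction. In dnmt3bb.2-/-, where 22.8% of all probes were higher and 24.1% lower, the counts higher and lower were 2 and 3 of 12, 3 and 4 of 11, 2 and 3 of 8, and 4 and 4 of 21. List medians at 1 dpf lay between -0.06 and 0.17. In MZdnmt3aa-/- eggs 7 of 12 piRNA genes were lower and 2 higher, where 28.8% and 28.5% of all probes were called so, and the helicase gene tdrd9 was among the lower (-3.50). Of 11 meiosis genes 6 were higher and 5 lower in those eggs, with a median of 0.65. Lower were dmc1, of the recombinase, at least 9.34-fold, and spo11, of the enzyme that makes meiotic DNA breaks. The log2 difference of spo11 was -3.02 on a probe other than its brightest, and sycp3 was higher by 1.90. dmc1 was also at least 6.62-fold lower in dnmt3bb.2-/- eggs, against the same WT arrays. In dnmt3bb.2-/- the Tudor gene tdrd15 was higher at all 5 stages, by between 1.18 and 1.63 on the log2 scale.

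Other transcripts with a course like that of a member were sought by Pearson's r over the 45 arrays among 25199 probes of other genes. The 3 most like dazl were kpna7, tent2 and ppp1r3c2b (r of 0.991, 0.991 and 0.990). kpna7 encodes an egg importin, and tent2 a cytoplasmic poly(A) polymerase. For ddx4 they were pros1, slc17a9b and caprin2 (0.983, 0.982 and 0.982), and for nanos3 sh3glb2a, usp37 and yipf5 (0.961, 0.959 and 0.958). For zar1 they were si:dkeyp-98a7.4, zgc:153499 and zgc:171781 (0.982, 0.979 and 0.977). The 45 arrays share 5 stages, so these coefficients describe a common fall from a maternal level and carry no test.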

How the data were processed

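Total RNA of pools of 20 embryos was labelled with Cy3 and hybridised to Agilent zebrafish arrays by the authors, and the scans were read with Feature Extraction 12.0.3.1. The deposited intensity values are processed signals that the authors' software corrected for background and spatial trend. Flags in the deposited files mark outlier, saturated and well-above-background spots, and these served as filters. From there the processed signal of each of the 45 arrays was multiplied by 1 factor (2.55 to 3.67) that set its mean, trimmed by 2% at each end, to 2500, as the study's methods state. The deposited normalized intensity table of the authors matched these values to a ratio of 1.00. Scores were taken as log2, outlier spots were left out and spots of 1 probe were averaged.

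Probes were named by matching the transcript accession of the design to RefSeq genes of the GRCz12tu assembly, which gave a symbol to 26421 of the 43603 probes. The array was designed on an older assembly, so no positions are given, and no probe, promoter or protein sequence was at hand for the members. Comparisons were fitted with limma 3.58.1 in R 4.3.3, with Benjamini-Hochberg adjustment over all probes tested: each mutant against WT on the 6 arrays of a stage, stage steps on the 15 arrays of a genotype, and differences between steps on 12 arrays. Probes entered a test if 1 or more arrays of the fit had them well above background and each group held 2 or more values. The label text calls the 3 arrays of a group independent experiments, and p-values measure the spread between these 3 pools.

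A fold written as "at least" sets the mean of the brighter group against the lowest signal well above background on the arrays of the dimmer group, or the dimmer probe's own signal where that is higher. Every probe of the 9 genes was read, but the dimmer probes are not described in every comparison. From each wider list the genes named come from the 3 with the largest called change per comparison among genes that stood above background on each array of the brighter group, and list counts use the brightest probe of a gene. Of the 17 germ plasm and migration, 18 piRNA, 28 meiosis and 33 oocyte and egg symbols listed, 12, 12, 13 and 24 were matched. The members and lists were chosen with earlier results of these data known. The number of arrays, 3 per group, limits the precision. The fits were tested on simulated data. Alternatives tried were normexp background correction with an offset of 50 on the deposited raw intensity columns, quantile normalization, scaling by the 75th percentile, other filters on dim probes, other eBayes options, an adjusted p of 0.05, fits over all 45 arrays or the arrays of 2 stages, slide or replicate number as a block, outlier spots kept, the deposited table, and leaving out each array in turn.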

Additional observations from a re-analysis of the deposited data

Results flagged for a closer look

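The step from 1-2 cell to shield differed from that of WT by the interaction term of limma for 11 probes. In MZdnmt3aa-/- the differences were 1.61, 1.72, 1.65 and 1.60 for ca15b probes 2, 3, 5 and 6 (adjusted p of 0.00541, 0.0086, 0.00705 and 0.00828) and -2.48 for hormad1 (5.99e-04). In dnmt3bb.2-/- they were 0.83, 0.94, 0.92, 0.90, 0.92 and 0.87 for the 6 ca15b probes in order (between 3.74e-04 and 0.00184). The probes of ca15b share 1 gene and are not separate evidence.

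For some brightest probes every array of a mutant lay above WT at one stage and below WT at another, and the difference between the stages was not tested. ca15b had the widest of these gaps, 5.52 in dnmt3bb.2-/- (1.12 at shield, -4.40 at 1 dpf) and 4.13 in MZdnmt3aa-/- (0.93 at shield, -3.20 at 1 dpf). In MZdnmt3aa-/- the gap was 3.72 for hormad1 (0.61 at 1-2 cell, -3.11 at 5-somite), 1.77 for dazl (0.55 at 1-2 cell, -1.22 at 1 dpf), 1.74 for ddx4 (0.24 at 1-2 cell, -1.50 at 2 dpf) and 1.53 for dnd1 (0.53 at 1-2 cell, below WT at 1 dpf). In dnmt3bb.2-/- it was 0.92 for dazl (0.23 at 1-2 cell, -0.69 at 2 dpf). Groups of 3 arrays are too small for a test of single outlying arrays.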

How the results depend on the processing

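Of the 208 called differences of single member probes, all 208 kept direction and call with the deposited table and with outlier spots kept, 192 with quantile normalization, 199 with the 75th percentile, 183 with normexp, 165 in a fit over all 45 arrays and 164 with the replicate block. In 4 cases the sign turned. The second piwil1 probe at the WT step to shield was 0.0349 with quantile normalization and 0.11 with the 75th percentile, and with normexp the fourth piwil1 probe and the third tdrd7a probe were 0.0433 and 0.0084 in dnmt3bb.2-/- at shield. The cause was not tested.

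The counts of called member probes that moved by over 1.5 times were these. At an adjusted p of at most 0.05, MZdnmt3aa-/- had 16 at 1 dpf, 6 at 5-somite and 10 at shield, dnmt3bb.2-/- had 7 at 2 dpf, and the step differences had 8 and 12. In the fit over all 45 arrays, MZdnmt3aa-/- had 16 at 1 dpf, 7 at 5-somite and 10 at shield, dnmt3bb.2-/- had 7 at shield and 7 at 2 dpf, and the step differences had 3 and 0. With normexp, MZdnmt3aa-/- had 4 at 1-2 cell, 5 at shield and 7 at 5-somite, dnmt3bb.2-/- had 5 at 2 dpf, and the MZdnmt3aa-/- step difference had 0. For MZdnmt3aa-/- at shield the count was 6 with trend and robust options, 1 with no filter and 4 with a strict filter on dim probes. With the slide as a random block it was 5 there, 1 at 5-somite and 1 for the step difference, and with the slide as a fixed block dnmt3bb.2-/- had 1 at 1-2 cell and 1 at 2 dpf. A slide block was not run for MZdnmt3aa-/- at 1-2 cell and 1 dpf or for dnmt3bb.2-/- at 5-somite, where slide and genotype cannot be told apart. Calls over all probes moved by over 1.5 times in part of these fits too. In MZdnmt3aa-/- the main fits had 18598 at 1-2 cell, 4144 at shield, 7565 at 5-somite and 7873 at 1 dpf. An adjusted p of at most 0.05 gave 10183 at shield, 15233 at 5-somite and 14742 at 1 dpf. The fit over all 45 arrays gave 12885 at shield and 11914 at 5-somite. The random slide block gave 6429 and 378 there, and normexp gave 5751 at 1-2 cell.

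Arrays with the same replicate number did not deviate together (correlations of deviations between -0.0637 and 0.251, and in no comparison all above 0.1), so the numbers do not pair the samples. With the replicate block the counts were 6 at 1-2 cell, 0 at shield, 3 at 1 dpf and 0 at 2 dpf in MZdnmt3aa-/-, 0 at 1-2 cell and 1 at 2 dpf in dnmt3bb.2-/-, and 2 for the MZdnmt3aa-/- step difference. The 3 counts of 0 had 11, 10 and 6 probes under an unadjusted p of 0.05. Over all probes the replicate block gave 651 at shield, 1071 at 1 dpf and 354 at 2 dpf in MZdnmt3aa-/-. Without the block they were 4144, 7873 and 4804. In dnmt3bb.2-/- the block gave 3701 at 1-2 cell and 1610 at 2 dpf, against 10043 and 5753 without it.

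Leaving out 1 array gave 9 to 16 at 1-2 cell, 0 to 9 at shield, 2 to 11 at 5-somite, 3 to 16 at 1 dpf and 1 to 7 at 2 dpf in MZdnmt3aa-/-, with the highest count without MZdnmt3aa-/- array 3 at each stage. The count of 0 at shield came without any 1 of the WT arrays or without MZdnmt3aa-/- array 2 (11 under an unadjusted p of 0.05 each time). In dnmt3bb.2-/- it gave 1 to 7, 14 to 16, 8 to 10, 14 to 15 and 2 to 3. Without WT array 2 the count was 1 for MZdnmt3aa-/- at 2 dpf and 1 for dnmt3bb.2-/- at 1-2 cell. The step differences gave 1 to 8 in MZdnmt3aa-/- and 6 to 10 in dnmt3bb.2-/-. The WT steps gave 20, 21, 15 to 18 and 16 to 17 in order, and the step to shield gave 12 to 13 in MZdnmt3aa-/- and 21 to 22 in dnmt3bb.2-/-. Calls over all probes moved in these fits too. In MZdnmt3aa-/- they were as few as 861 at shield (4144 in the full fit) and 1169 at 2 dpf (4804). They ran from 1932 to 13819 at 5-somite (7565) and from 2410 to 16170 at 1 dpf (7873). In dnmt3bb.2-/- they were as few as 5071 at 1-2 cell (10043) and 2163 at 2 dpf (5753).

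The share of higher calls over all probes at the 4 WT steps was 45.3%, 58.0%, 51.3% and 52.6%, and it was 56.1% at the first step with the 75th percentile and 46.2%, 38.9% and 39.9% at the others with quantile normalization. Probes near background, most of all at 2 dpf, have only a bound.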
